A study of Mus musculus with 36 samples.

Results

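The step from day 3 to day 5 of neural differentiation is described here for mouse embryonic stem cells (ESCs) whose TET1 enzyme carries substitutions in its catalytic site (Tet1 MUT). The libraries were chosen by their labels, as those of the cell lines CM59 and CM69 on day 5 and day 3, which gave 4 of the 36 libraries of the series, 2 on each day. Each line was sampled on both days, so that CM59 and CM69 each gave a day 5 and a day 3 library. The main test held no term for the line. MUT cells on day 3 had been in serum-free N2B27 medium with basic fibroblast growth factor (bFGF) until collection, and MUT cells on day 5 had spent the last part of the culture without bFGF. Line WT70, labelled WT, gave 1 library on each of these days and was the nearest comparator. The sample titles give no experiment number, so libraries whose counts were deposited together are taken here as 1 experiment. In that sense WT70 shared the experiment of the MUT lines. Tet1 KO lines KO1 and KO15 (3 libraries on day 5 and 4 on day 3) and WT lines WT7 and WT34 (3 on day 5 and 4 on day 3) came from 2 other experiments, so genotype and experiment cannot be told apart between them and the MUT lines. All of the lines had a mixed B6 and 129S6 background, no time point had an added inhibitor or inducer in its label, and feeder cells had been depleted before plating. The KO lines carry the Tet1tm1Koh allele. According to the study's methods the MUT lines are clones made from WT7 by Cas9 cutting and homology-directed repair, still make full-length TET1 protein, and were made beside mock-transfected clones. Whether WT70 is one of these mock clones cannot be read from its labels. There were 2 clones of 1 parent line, with 1 library per clone and day. The p-values rest on a spread estimated from all 36 libraries, most of them of other lines and experiments, and not on the spread between these clones alone.

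TET1 oxidises 5-methylcytosine in DNA to 5-hydroxymethylcytosine in a reaction that needs iron held by a histidine and an aspartate of its active site, and it also has an N-terminal part with roles that do not need this chemistry. In the culture used here ESCs leave the naive state, pass through a formative, epiblast-like state and then become neural progenitors. In the embryo the same epiblast gives rise either to neurectoderm or, where Wnt and Nodal signals act, to the primitive streak, the structure through which mesoderm and definitive endoderm form. T, Eomes and Foxa2 mark the streak, and Wnt signals also push neural tissue towards midbrain, hindbrain and spinal fates. Hox genes mark the hindbrain and spinal fates.

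The edited stretch of Tet1 is shown first, since it defines the MUT lines. It lies at chr10:62814436-62814521 on the minus strand of GRCm38 (mm10), in exon 9 of the 11 exons of the GENCODE transcript used. The study's methods give another exon number for the guide, and the position here is that of the sequence match. Capitals in the reference and donor stretches mark the bases that differ.
Reference: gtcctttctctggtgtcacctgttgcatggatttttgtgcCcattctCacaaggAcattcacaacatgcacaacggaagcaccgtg
Repair donor: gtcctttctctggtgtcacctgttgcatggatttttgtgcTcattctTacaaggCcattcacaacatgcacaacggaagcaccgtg
Guide: gtgaatgtccttgtgagaatGGG
In the guide line the capitals mark the PAM, read from the reference, and the guide matches chr10:62814460-62814479 on the plus strand. Counted from 1 at the 5′ end of the stretch, the donor differs by C41T, which is silent and lies in the PAM, by C48T, which turns codon 1620 from histidine to tyrosine, and by A55C, which turns codon 1622 from aspartate to alanine. Gene-level counts cannot show these substitutions, so the level of Tet1 RNA below checks neither the edit nor the label.

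In units of 1e6 counts, the MUT libraries held 18.27 and 20.03 on day 5 and 20.49 and 23.22 on day 3, and the WT70 libraries 17.51 on day 5 and 19.45 on day 3. The 36 libraries of the series ranged over 10.14 to 26.31 in the same units. In the 6 libraries of the MUT and WT70 lines, mitochondrial genes took 1.805 to 2.05% of the counts and 25583 to 26736 genes had a count. Levels are given below as CPM, the counts of a gene per 1e6 counts of its library after TMM scaling. CPM is not divided by gene length, so levels are compared between libraries and not between genes. Tet1 was at 182 CPM in CM59 and 158 CPM in CM69 on day 5, against 320 and 251 CPM on day 3. WT70 had 170 CPM on day 5 and 254 CPM on day 3, and the KO libraries averaged 62.0 CPM on day 5 and 65.0 CPM on day 3. The log2 fold change of Tet1 in MUT cells, day 5 over day 3, was −0.75 ± 0.14 (SE, adjusted p = 0.000163), which lay inside the fold threshold.

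A gene is called, and is described as having risen or fallen, where edgeR's quasi-likelihood test put its adjusted p below 0.05 and its log2 fold change was above 1 or below −1. Between day 5 and day 3 of MUT cells 3755 of the 21601 genes tested were called. Of these, 1900 rose (8.80% of the tested genes) and 1855 fell (8.59%). For 3749 of the called genes the day 5 and day 3 libraries did not overlap, which was also so for 73.1% of all tested genes. CM59 and CM69 moved the same way for 3750 of the 3755, and both lines moved by more than 1 on the log2 scale for 3185. The calls rest on the mean of these same lines, so this agreement is not a separate test. In WT70 cells 1134 genes rose (5.25%) and 1511 fell (7.0%) over the same days, with 1 library a day assumed to vary like the other groups. In WT7 and WT34 cells 1618 rose (7.49%) and 1726 fell (7.99%), and in KO cells 2459 rose (11.4%) and 2363 fell (10.9%). Of the genes that rose in MUT cells, 852 also rose in WT70 cells, which was 44.8% of the MUT genes and 75.1% of the WT70 genes. Of those that fell, 1093 also fell in WT70 cells, 58.9% of the MUT genes and 72.3% of the WT70 genes. With the WT lines the shared genes numbered 1086 among those that rose (57.2% of the MUT and 67.1% of the WT genes) and 1172 among those that fell (63.2% and 67.9%). With the KO lines, which had more calls of their own, they numbered 1224 among those that rose (64.4% of the MUT and 49.8% of the KO genes) and 1264 among those that fell (68.1% and 53.5%), with 38 and 11 calls in the opposite direction. Calls in opposite directions between MUT and WT70 cells numbered 3 of the genes that rose in MUT cells and 1 of those that fell. The 4 MUT libraries and the libraries of the other lines in these counts share no sample. A gene called in MUT cells and not in another line is not in itself a difference between them. This holds most for WT70, with 1 library a day.

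**Figure D1:**
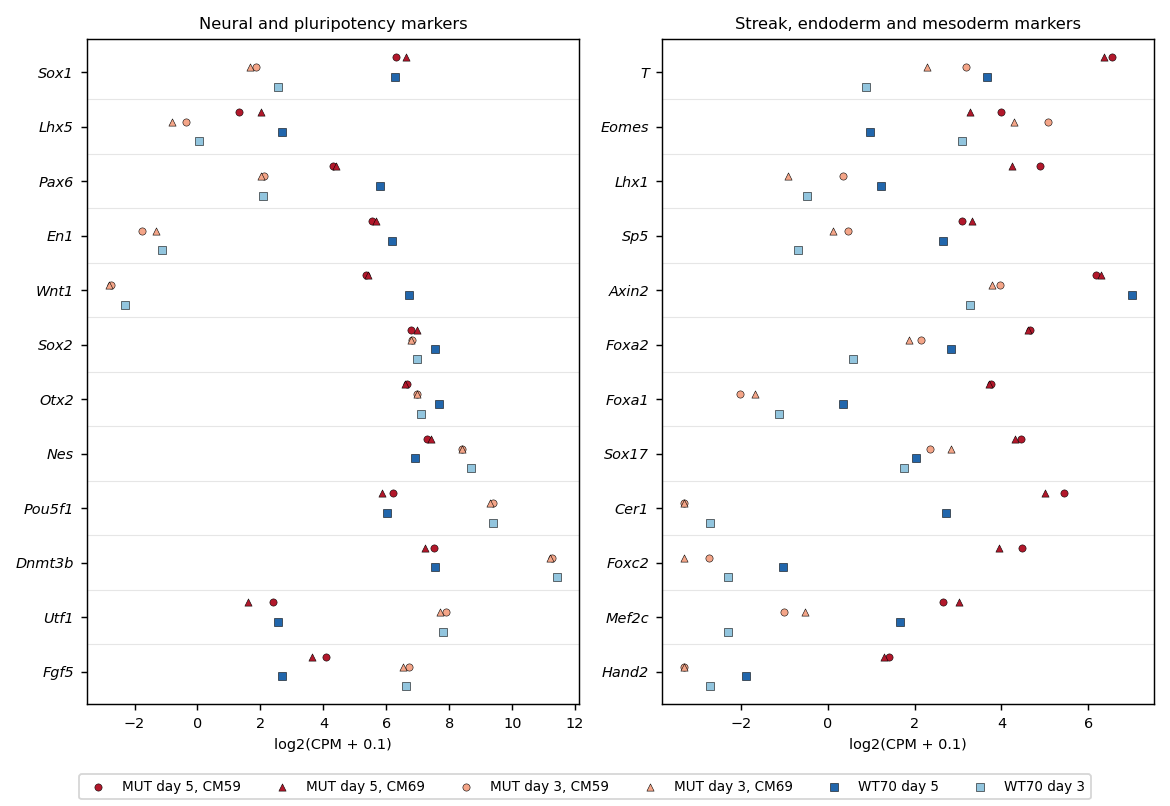
Level of marker genes in each MUT and WT70 library, as log2(CPM + 0.1), with circles for CM59, triangles for CM69 and squares for WT70, and day 5 beside day 3. Pou5f1 sat at 57.7 to 73.7 CPM on day 5 and 634 to 669 CPM on day 3 in MUT cells, while T sat at 82.3 to 93.1 CPM on day 5 and 4.79 to 9.02 CPM on day 3.

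Genes that mark the formative epiblast-like state fell in MUT cells. Pou5f1, which encodes the pluripotency factor OCT4, was at 73.7 CPM in CM59 and 57.7 CPM in CM69 on day 5, against 669 and 634 CPM on day 3. All day 5 libraries lay far below all day 3 libraries, and Pou5f1 fell by 3.31 ± 0.20 on the log2 scale (adjusted p = 3.68e-12). Dnmt3b, a DNA methyltransferase of the epiblast, had 183 and 149 CPM on day 5, against 2437 and 2362 CPM on day 3. It fell by 3.85 ± 0.11 (adjusted p = 2.52e-18), and WT70 cells were close to these levels, with 185 CPM on day 5 and 2734 CPM on day 3. Utf1, a chromatin factor of pluripotent cells, was at 5.14 and 2.93 CPM on day 5, against 236 and 207 CPM on day 3, a change of −5.78 ± 0.26. Pim2, a survival kinase, had 73.6 and 54 CPM on day 5, against 721 and 728 CPM on day 3, and fell by 3.51 ± 0.16. Foxd3, a forkhead factor of the formative state and later of neural crest, had 0.318 and 0.192 CPM on day 5, against 32.4 and 30.2 CPM on day 3. Of the 19 formative and primed genes tested, 12 fell and 1 rose (median log2 fold change −2.28, against 0.00 over all tested genes). In WT70 cells 12 fell and none rose. Fgf5, a growth factor of the primed epiblast, fell by 2.76 ± 0.22 in MUT cells, to 16.9 and 12.4 CPM on day 5, against 106 and 92.3 CPM on day 3.

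Naive and shared pluripotency genes were lower on day 5 or showed no call. Of the 14 naive genes tested, 9 fell and none rose (median −1.90). Zfp42 and Esrrb, both factors of the naive state that were already low on day 3, fell by 2.45 ± 0.33 and 2.55 ± 0.35. Tdh, the threonine dehydrogenase of naive mouse ESCs, had 0.424 and 0.337 CPM on day 5, against 24.9 and 23.5 CPM on day 3. Nanog did not pass the test, at 26.1 and 19.4 CPM on day 5 and 29 and 24 CPM on day 3 (−0.22 ± 0.38, adjusted p = 0.699). Klf4 had a log2 fold change of −0.12 ± 0.63. Sox2, which pluripotent and neural cells share, was at 109 and 125 CPM on day 5, against 112 and 109 CPM on day 3, and Otx2, shared by the epiblast and the anterior brain, was at 100 and 96.9 CPM on day 5, against 125 and 126 CPM on day 3. Neither passed the test in MUT cells. Slc27a2, an acyl-CoA synthetase of very long chain fatty acids, was among the 12 genes with the most negative fold changes, at 1.75 and 1.2 CPM on day 5 and 64.6 and 62 CPM on day 3 (−5.42 ± 0.21). The non-coding RNA Platr10 had 1.69 and 0.77 CPM on day 5, against 58.8 and 51.3 CPM on day 3. Pcnx2 had 1 count over both day 5 libraries, against 299 over both day 3 libraries, a ratio of 0.00372 (95% interval 9.38e-05 to 0.0209, counting error only). Psors1c2, Xkr7, Trim66, Ankrd35, Syt4 and Aoah made up the rest of this end of the order with Utf1, Foxd3 and Tdh, with log2 fold changes between −5.98 and −4.77.

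Neural genes rose in both MUT lines. Sox1, the earliest factor restricted to neural progenitors, was at 79.8 CPM in CM59 and 99 CPM in CM69 on day 5, against 3.56 and 3.05 CPM on day 3, and rose by 4.76 ± 0.43 on the log2 scale (adjusted p = 2.8e-09). WT70 cells had 76.8 CPM on day 5 and 5.75 CPM on day 3, so day 5 levels lay close together. Pax6, a factor of forebrain and hindbrain progenitors, had 19.8 and 21 CPM on day 5, against 4.19 and 3.95 CPM on day 3 (2.32 ± 0.37). The WT70 library of day 5 was higher, at 55.6 CPM, and that of day 3 was level with MUT cells, at 4.11 CPM. Lhx5, a forebrain factor, had 2.38 and 3.94 CPM on day 5, against 0.682 and 0.467 CPM on day 3, while WT70 had 6.34 CPM on day 5 and 0.924 CPM on day 3. Fezf2, a forebrain repressor, had 7.94 and 7.89 CPM on day 5 and no count on day 3, which made it at least 116-fold higher, counted against 3 counts over the day 3 group. WT70 had 18.9 CPM of Fezf2 on day 5 and 0.308 CPM on day 3. Of the 26 anterior neural genes tested, 17 rose and 2 fell in MUT cells (median 2.13), and 15 rose and 2 fell in WT70 cells. Cdh2, the neural cadherin, had 235 and 259 CPM on day 5, against 28.8 and 29.8 CPM on day 3 (3.07 ± 0.26), and Sox21 and Ncam1 rose by 4.31 ± 0.38 and 1.69 ± 0.12. The members that fell were Zic5 (−1.82 ± 0.15) and Nes, the intermediate filament nestin, at 155 and 171 CPM on day 5 and 341 and 340 CPM on day 3. The change of Nes was −1.06 ± 0.17, and −0.96 without the CM59 library of day 5.

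Most midbrain and hindbrain genes rose, and Wnt1 and En1 did so from day 3 levels under 0.3 CPM. Of the 18 listed, 8 averaged 1 CPM or more in MUT cells on day 3 and 17 on day 5. Wnt1, the ligand that patterns the midbrain-hindbrain boundary, was at 40.5 and 42.9 CPM on day 5, against 0.0487 and 0.0424 CPM on day 3, 1656 counts over the day 5 libraries and 2 over the day 3 libraries. The ratio was 920 (95% interval 254 to 7605), and WT70 had 105 CPM on day 5 and 0.103 CPM on day 3. En1, a factor of the same boundary, had 46.2 and 50.4 CPM on day 5, against 0.195 and 0.297 CPM on day 3 (7.55 ± 0.54, adjusted p = 5.02e-11). Of the 18 genes of this list, 14 rose and none fell in MUT cells (median 3.17), and 14 rose and 1 fell in WT70 cells. Pax3, a factor of dorsal neural tube and neural crest, and Irx1 rose by 6.38 ± 0.55 and 3.38 ± 0.30. Among 16 neural crest and roof plate genes 13 rose and 1, Foxd3, fell (median 2.68), with 12 up and 1 down in WT70 cells. Sox9, a crest factor, had 36.9 and 32.7 CPM on day 5, against 6.29 and 6.41 CPM on day 3.

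Neuronal genes moved both ways. Of 20 tested, 6 rose and 5 fell (median 0.31). Ina, a neuronal intermediate filament, had 7.68 and 6.64 CPM on day 5, against 72.9 and 70.3 CPM on day 3, and Elavl3, an RNA-binding protein of neurons, fell by 4.28 ± 0.35. Elavl4 of the same family rose by 1.58 ± 0.24. Tubb3, the neuronal tubulin, stayed inside the fold threshold (−0.96 ± 0.22, adjusted p = 0.00106), and passed it without the CM59 library of day 3 (−1.06) or the CM69 library of day 5 (−1.12). Onecut2 did not pass, at 12.9 and 12.7 CPM on day 5 and 9.84 and 9.97 CPM on day 3.

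Primitive streak genes did not all move alike. T, the brachyury factor of streak and nascent mesoderm (chr17:8434423-8442496), was at 93.1 CPM in CM59 and 82.3 CPM in CM69 on day 5, against 9.02 and 4.79 CPM on day 3. Both MUT lines were higher on day 5, and T rose by 3.68 ± 0.55 (adjusted p = 6.94e-06). WT70 was lower on both days, at 12.5 CPM on day 5 and 1.74 CPM on day 3, and the WT libraries of day 5 spanned 8.4 to 79.8 CPM. These are bulk libraries, so fewer cells of a type and less RNA per cell cannot be told apart. Foxa2, a forkhead factor of anterior streak and endoderm, had 25 and 24.5 CPM on day 5, against 4.34 and 3.56 CPM on day 3, and rose by 2.65 ± 0.43. Lhx1, a factor of anterior streak derivatives, had 29.6 and 18.8 CPM on day 5, against 1.17 and 0.424 CPM on day 3 (4.95 ± 0.79). Mesp1, the factor of the earliest cardiac mesoderm, had 117 counts over the day 5 libraries and 1 over the day 3 libraries, a ratio of 130 (95% interval 22.9 to 5179). Aplnr, the apelin receptor of streak-derived mesoderm, had 90.4 and 65.3 CPM on day 5, against 0.341 and 0.17 CPM on day 3 (8.24 ± 0.73), with 10.1 CPM on day 5 and 0.821 CPM on day 3 in WT70 cells. By contrast, Eomes, which acts at the start of the streak, had 15.7 and 9.62 CPM on day 5, against 33.8 and 19.6 CPM on day 3, and did not pass the test (−1.07 ± 0.50, adjusted p = 0.0923). Mixl1 and Gsc did not pass either, with log2 fold changes of −1.5 ± 0.73 and 0.82 ± 0.67. Eomes and Mixl1 were called as lower, at nearly the same fold changes, when only the 6 libraries of the experiment were fitted (adjusted p = 0.00866 and 0.0289), and likewise with the WT and KO libraries of experiment 1 alone beside them (0.00156 and 0.0229). Tbx6, a factor of presomitic mesoderm, rose by 1.58 ± 0.49 (adjusted p = 0.0121), but not without the CM59 library of day 3 (adjusted p = 0.059), the CM69 library of day 3 (0.0763) or the CM69 library of day 5 (0.0538). Fst, follistatin, rose by 1.08 ± 0.40 to 57 and 64.2 CPM on day 5, against 32.5 and 25 CPM on day 3, and lost its call without any 1 of the 4 libraries (adjusted p 0.0605 to 0.193). The member that fell was Nodal. Of the 20 streak genes tested 12 rose and 1 fell (median 1.58, or 1.66 with members of 3 or fewer counts on a day set to their bound), and the angiomotin gene Amot rose by 1.50 ± 0.17. In WT70 cells 3 rose and 1 fell, and in the WT lines 8 rose and 1 fell. Summed over the list, the level was 449 to 514 CPM on day 5 and 163 to 204 CPM on day 3 in MUT cells, against 157 and 101 CPM in the 2 WT70 libraries. The primitive streak markers of the embryo atlas used by the study went the other way. Of the 38 tested, 6 rose and 16 fell in MUT cells (median −0.74), and 4 rose and 18 fell in WT70 cells. Dnmt3b and Pim2, which fell, are on that atlas list, so the result depends on the list chosen.

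**Figure D2:**
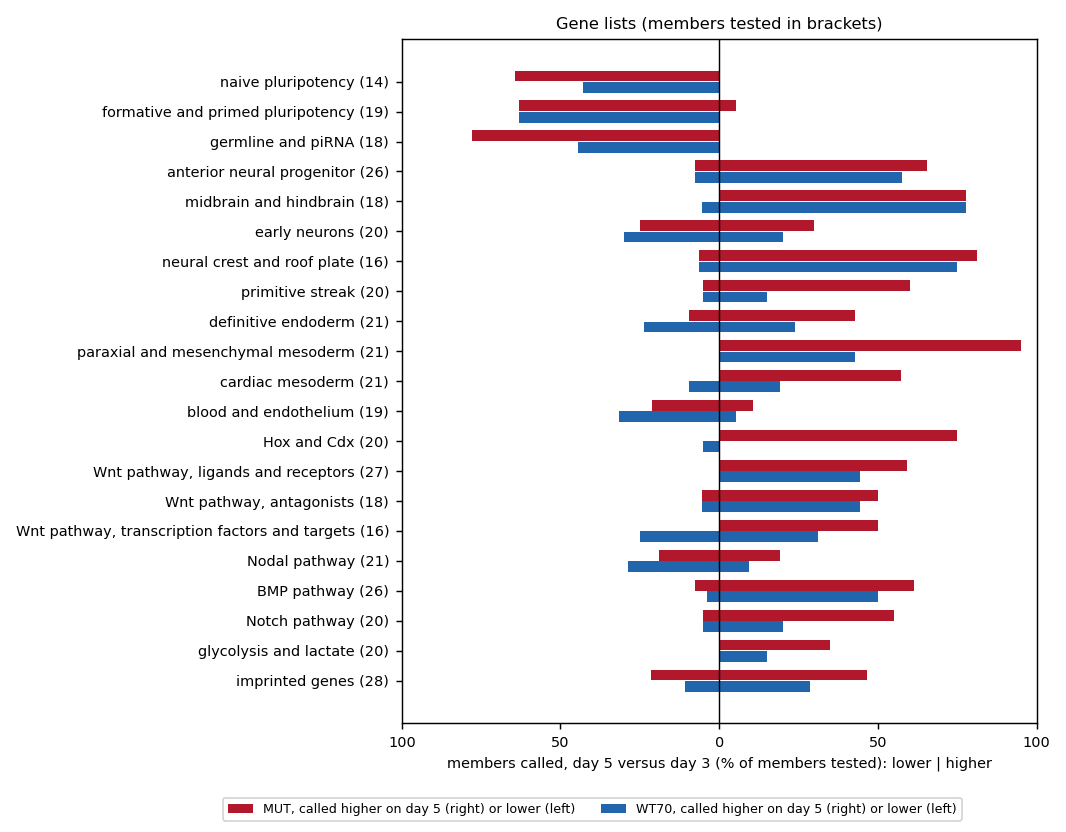
Share of the tested members of each gene list that rose or fell between day 5 and day 3, in MUT cells beside WT70 cells. Paraxial and mesenchymal mesoderm (20 of 21 members up), neural crest and roof plate (13 of 16), midbrain and hindbrain (14 of 18) and Hox and Cdx genes (15 of 20) stood at the upper end in MUT cells, and germline genes (14 of 18 down) at the lower end.

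Genes of Wnt signalling, in which secreted ligands bind Frizzled receptors and lead β-catenin to TCF/LEF factors on DNA, rose in MUT cells or were not called, apart from 1 antagonist that fell. Among 27 ligands and receptors 16 rose and none fell (median 1.69), against 12 and none in WT70 cells. Fzd3, a receptor, had 301 and 329 CPM on day 5, against 73.1 and 76.6 CPM on day 3 (2.07 ± 0.12), and Wnt8b and Rspo2, a ligand and an agonist, rose by 6.70 ± 0.79 and 4.69 ± 0.61. Wnt3, the ligand that starts the streak in the embryo, was at 6.78 and 5.53 CPM on day 5 and 7.21 and 5.51 CPM on day 3, with no call (−0.05 ± 0.46). Of 18 secreted or intracellular antagonists 9 rose and 1 fell (median 1.19), among them Frzb (3.86 ± 0.24), Sfrp1 (2.00 ± 0.15), Nkd1 (2.85 ± 0.28) and Apcdd1 (3.65 ± 0.36). Axin2, a feedback inhibitor that β-catenin induces, had 72.5 and 78.2 CPM on day 5, against 15.6 and 13.6 CPM on day 3, and rose by 2.37 ± 0.27 (adjusted p = 1.37e-07). The WT70 library of day 5 was above both MUT lines, at 129 CPM, with 9.6 CPM on day 3. Sp5, a transcription factor that is a direct Wnt target (chr2:70474923-70477729), had 8.47 and 9.81 CPM on day 5, against 1.27 and 0.976 CPM on day 3 (3.03 ± 0.38). Tcf7l1, a TCF that mainly represses Wnt targets, had 68.9 and 68.6 CPM on day 5, against 128 and 122 CPM on day 3. Its change of −0.86 ± 0.16 (adjusted p = 0.000125) was inside the fold threshold, and Lef1 had a change of −0.18 ± 0.21. Of the 16 TCF/LEF factors and targets 8 rose and none fell in MUT cells (median 1.12), and 5 rose and 4 fell in WT70 cells.

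The promoters of T and Sp5 are given for the TCF/LEF core motif, since both genes rose together with Axin2. Each window holds 250 bases before and 50 after the gene start on the plus strand of GRCm38.p6, from RefSeq, at chr17:8434173-8434472 for T and chr2:70474673-70474972 for Sp5. Capitals mark the motif match.
T: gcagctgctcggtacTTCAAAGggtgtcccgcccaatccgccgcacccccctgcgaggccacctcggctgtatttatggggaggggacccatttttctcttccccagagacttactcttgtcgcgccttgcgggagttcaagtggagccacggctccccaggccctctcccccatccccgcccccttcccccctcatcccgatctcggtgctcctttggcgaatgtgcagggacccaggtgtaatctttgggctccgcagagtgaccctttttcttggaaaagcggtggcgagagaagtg
Sp5: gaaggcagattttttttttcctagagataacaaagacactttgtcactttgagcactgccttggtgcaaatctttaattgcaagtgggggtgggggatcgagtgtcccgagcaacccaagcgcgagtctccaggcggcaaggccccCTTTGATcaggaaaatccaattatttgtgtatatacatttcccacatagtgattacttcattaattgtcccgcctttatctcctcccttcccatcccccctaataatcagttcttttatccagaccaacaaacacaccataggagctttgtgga
The motif was searched as CTTTGAT and CTTTGAA on both strands. A match began at −235 in T, on the minus strand, and at −104 in Sp5, on the plus strand. Of the 16 TCF/LEF factors and targets, 11 had a promoter in the table, and Sp8 was the only other of them with a match. Of their 19 promoters 3 held a match (15.8%), against 2842 of all 32851 promoters of this length (8.65%). A match is a description of these letters, not a measured binding site.

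Genes of Nodal signalling moved both ways, and most genes of BMP signalling rose. Nodal, the ligand itself, was at 3.39 and 3.17 CPM on day 5, against 13.5 and 9.04 CPM on day 3, and fell by 1.78 ± 0.37 (adjusted p = 0.000377). Lefty1, a Nodal antagonist and target, had 0.847 and 0.818 CPM on day 5, against 2.63 and 2.42 CPM on day 3, and fell by 1.59 ± 0.62 (adjusted p = 0.0444), a call that was lost without any 1 of the 4 libraries (adjusted p 0.0959 to 0.171). Lefty2 did not move beyond its error (0.06 ± 0.58). Gdf3, a Nodal-like ligand, fell by 4.09 ± 0.26, and Smad3, which carries the signal to the nucleus, rose by 1.57 ± 0.13. Cer1, a secreted antagonist of Nodal, BMP and Wnt that anterior endoderm makes, had 43.6 and 32.2 CPM on day 5 and no count on day 3, so it was at least 553-fold higher. WT70 had 6.51 CPM of Cer1 on day 5 and 0.0513 CPM on day 3. Cer1 also rose in the WT lines (6.09 ± 0.83, adjusted p = 2.83e-06), whose day 5 libraries spanned 1.24 to 35.2 CPM and overlapped the MUT libraries. Over the 21 Nodal pathway genes 4 rose and 4 fell (median 0.14). Of 26 BMP pathway genes 16 rose and 2 fell (median 1.90), against 13 and 1 in WT70 cells. Bmp4, Bmp7 and the target genes Id1 and Id2 rose by 3.91 ± 0.35, 2.51 ± 0.14, 4.11 ± 0.21 and 2.90 ± 0.23. Id1 had 40.8 and 39.8 CPM on day 5, against 2 and 2.63 CPM on day 3.

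Endoderm factors were among the genes that rose. Foxa1, a forkhead factor of endoderm and floor plate, was at 13.5 CPM in CM59 and 13 CPM in CM69 on day 5, against 0.146 and 0.212 CPM on day 3, and rose by 6.13 ± 0.68 (adjusted p = 7.81e-08). WT70 had 1.17 CPM on day 5 and 0.359 CPM on day 3. Cpm, carboxypeptidase M, had 52.5 and 51 CPM on day 5, against 2.88 and 2.33 CPM on day 3 (4.31 ± 0.33, adjusted p = 1.56e-10), and WT70 had 5.9 CPM on day 5 and 1.49 CPM on day 3. For both genes the day 5 libraries of CM59 and CM69 lay close together and above the other libraries of the experiment. Sox17, the definitive endoderm factor, had 21.9 and 19.7 CPM on day 5, against 5.02 and 7.08 CPM on day 3, and rose by 1.78 ± 0.46. Shh, the ligand of notochord, floor plate and gut endoderm, had 9.27 and 11.8 CPM on day 5 and no count on day 3, at least 156-fold higher, and 1.72 CPM on day 5 in WT70 cells. Cxcr4, a chemokine receptor of endoderm and of many migrating cells, rose by 4.39 ± 0.30 and was as high in the WT70 library of day 5, at 43.3 CPM, as in MUT cells, at 43.8 and 44.8 CPM. Spink1 did not pass the test (0.91 ± 0.62, adjusted p = 0.261). Of the 21 endoderm genes 9 rose and 2 fell (median 0.91), those that fell being the epithelial genes Epcam (−2.13 ± 0.19) and Cldn6, and in WT70 cells 5 rose and 5 fell. Because these genes are also read in extraembryonic endoderm, the 13 tested genes of that list were counted, of which 2 rose and 1 fell. Their summed level was 1064 to 1426 CPM on day 5 and 1041 to 1259 CPM on day 3 in MUT cells, against 823 and 670 CPM in WT70 cells. Those that rose were Fst, by 1.08, and Plat, whose change was 1.41 without the CM59 library of day 3. Afp was at most 0.673 CPM in a MUT library, and Amn, the amnionless gene of visceral endoderm, fell by 2.36 ± 0.56. The part of such cells in the endoderm result was not tested.

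Nearly all paraxial and mesenchymal mesoderm genes rose. Of 21 tested, of 22 listed, 20 rose and none fell in MUT cells (median 2.82), against 9 and none in WT70 cells and 16 and none in the WT lines. Foxc2, a forkhead factor of paraxial mesoderm, was at 22.3 and 15.2 CPM on day 5, against 0.0487 and 0 CPM on day 3, 737 counts and 1 count over the 2 days, and WT70 had 0.389 CPM on day 5 and 0.103 CPM on day 3. The ratio in MUT cells was 819 (95% interval 147 to 32395), and in WT70 cells, with 7 counts and 2 counts, 3.79 (0.722 to 37.4). In the WT lines Foxc2 rose as well (5.44 ± 0.69, adjusted p = 5.31e-07), to 0.386 to 8.5 CPM on day 5 against a mean of 0.063 CPM on day 3, and the difference between the MUT and WT courses did not pass the test (3.81 ± 1.80, adjusted p = 0.273). Meox1, a somite factor, had 15.9 and 17.1 CPM on day 5, against 0.0487 and 0.0848 CPM on day 3, a ratio of 243 (95% interval 82.8 to 1181), while WT70 had 2 counts on day 5 and none on day 3. Both genes stayed under 0.5 CPM in the WT70 libraries and in MUT cells on day 3. Twist1, a factor of mesenchyme, had 41.2 and 31.8 CPM on day 5, against 9.84 and 9.21 CPM on day 3 (1.94 ± 0.21), and Prrx2, of the same kind, had 22 and 19.8 CPM on day 5, against 1.27 and 1.61 CPM on day 3 (3.85 ± 0.32). Zeb1, a repressor of epithelial genes that neural progenitors also express, had 60.2 and 65.7 CPM on day 5, against 3.31 and 4.07 CPM on day 3, and WT70 was alike, at 51.5 CPM on day 5 and 2.51 CPM on day 3. Summed over the list, MUT cells had 843 to 858 CPM on day 5 and 212 to 221 CPM on day 3, and WT70 cells 476 CPM on day 5 and 189 CPM on day 3.

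Cardiac genes rose or were not called. Of 21 tested, 12 rose and none fell (median 2.69, or 2.58 with low members at their bound), while 8 rose and 1 fell in the WT lines (median 0.83). None of the 21 was called for the difference between the MUT and WT courses (median difference 1.29). In WT70 cells, with 1 library a day, the median change was 0.50. Hand2, a factor of heart and limb mesoderm, had 2.54 and 2.36 CPM on day 5 and no count on day 3, at least 35.9-fold higher. Mef2c, a muscle and heart factor, had 6.14 and 8.03 CPM on day 5, against 0.39 and 0.594 CPM on day 3 (3.82 ± 0.59), and Bmp5 rose by 5.54 ± 0.61. Of the contractile genes, Myl7, the atrial myosin light chain, had 1.54 and 1.64 CPM on day 5, against 0.292 and 0.17 CPM on day 3 (2.76 ± 0.63), and Myh7, a myosin heavy chain, rose by 3.47 ± 0.39. Tnnt2, cardiac troponin T, stayed at or under 1.64 CPM in every MUT library with no call, and Gata4 had no call at 26.4 and 32.8 CPM on day 5 and 20.6 and 25.2 CPM on day 3. Blood and endothelium genes did not follow, with 2 of 19 up and 4 down (median −0.26). Kdr, a receptor of endothelial and early mesodermal cells, and Gata1 rose by 3.27 ± 0.48 and 4.68 ± 0.87, and Eng, endoglin, fell by 3.99 ± 0.36. Of the 79 tested mesoderm markers in the embryo atlas list used by the study, 54 rose and none fell in MUT cells. In WT70 cells 30 rose and 1 fell, and in the WT lines 42 rose and none fell. The difference from the MUT course was called for 1 of the 79 against WT70 and for 6 against the WT lines. Samd3, Ptgds, a prostaglandin D synthase, and Sparcl1, a matrix protein, completed the 12 most positive fold changes, with ratios of 572 (95% interval 102 to 22650), 311 (85.7 to 2576) and 332 (59.2 to 13168) and at most 2 counts over the day 3 libraries.

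Mesenchymal genes are also read in feeder fibroblasts. Of the 14 tested feeder genes 5 rose and 2 fell, and their summed level was 228 to 276 CPM on day 5 and 103 to 113 CPM on day 3 in MUT cells, against 220 and 153 CPM in WT70 cells. In the WT lines it was 254 to 402 CPM on day 5 and 109 to 173 CPM on day 3. Mmp3 had no count in either MUT library of day 5, Lum was at 1.11 and 1.01 CPM, and Dcn at 0.477 and 0.721 CPM. Acta2 and Pdgfrb, which smooth muscle and other mesoderm also make, rose by 3.60 ± 0.25 and 4.29 ± 0.33, and Thy1, a fibroblast surface protein that neurons share, fell by 3.16 ± 0.33. The collagen gene Col1a1 was also among those that rose. It lost its call with limma on log2(TPM + 1) or log2(TPM + 0.1), with changes of 1.09 and 1.29. The part of feeder cells in the mesoderm result was not tested.

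The Hox and Cdx genes, which give cells of the trunk and hindbrain their position along the body axis, were close to 0 in MUT cells on day 3. Of 25 listed, 20 passed the filter on low counts, 15 rose and none fell, with a median of 4.29 (3.86 with the 11 members of 3 or fewer counts on a day at their bound). The filter kept genes that were high in any group, so the median describes the members that passed. In the WT lines 5 rose and none fell, and in WT70 cells none rose and 1, Hoxc9, fell. In KO cells 11 rose and 2 fell (median 2.99). None of the 20 was called for the difference between the MUT and WT courses (median difference 2.32). Summed over the list, the level on day 5 was 41.5 to 51.2 CPM in MUT cells, 2.89 CPM in WT70, 4.09 to 18.5 CPM in the WT and 16 to 53.5 CPM in the KO libraries. In MUT cells 13 of the 20 averaged 1 CPM or more on day 5 and only Hoxc9 did on day 3. None of the 20 reached 1 CPM in WT70 cells on day 5. Hoxa2 (chr6:52162417-52164831) had 5.56 and 7.12 CPM on day 5, against 0.0487 and 0 CPM on day 3, a ratio of 281 (95% interval 50 to 11149). In the Hoxb cluster, Hoxb1 (chr11:96365752-96368256) had 4.55 and 5.48 CPM on day 5, against 0.244 and 0 CPM on day 3 (5.35 ± 1.26, adjusted p = 0.00161, and 9.28 without the CM59 library of day 3), and 0.111 CPM on day 5 and 0.154 CPM on day 3 in WT70 cells. Hoxb2 (chr11:96350525-96354012) had 207 counts on day 5 and 1 on day 3, a ratio of 230 (95% interval 40.8 to 9130). Hoxb3os (chr11:96343072-96354691), an antisense RNA that overlaps Hoxb2, had 8.47 and 9.52 CPM on day 5 and no count on day 3, at least 133-fold higher. The deposited counts do not state how strand was used, so reads of Hoxb2 and Hoxb3os may not be told apart. Hoxd4 (chr2:74711929-74729160) had 0.847 and 1.11 CPM on day 5 and none on day 3. Cdx2, an inducer of trunk Hox genes, had 5.19 and 5.10 CPM on day 5, against 0.39 and 0.339 CPM on day 3 (3.79 ± 0.84). In the WT libraries of day 5, Hoxb1 spanned 0 to 3.1 CPM and Cdx2 0.464 to 1.28 CPM, so the MUT libraries lay above both ranges.

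**Figure D3:**
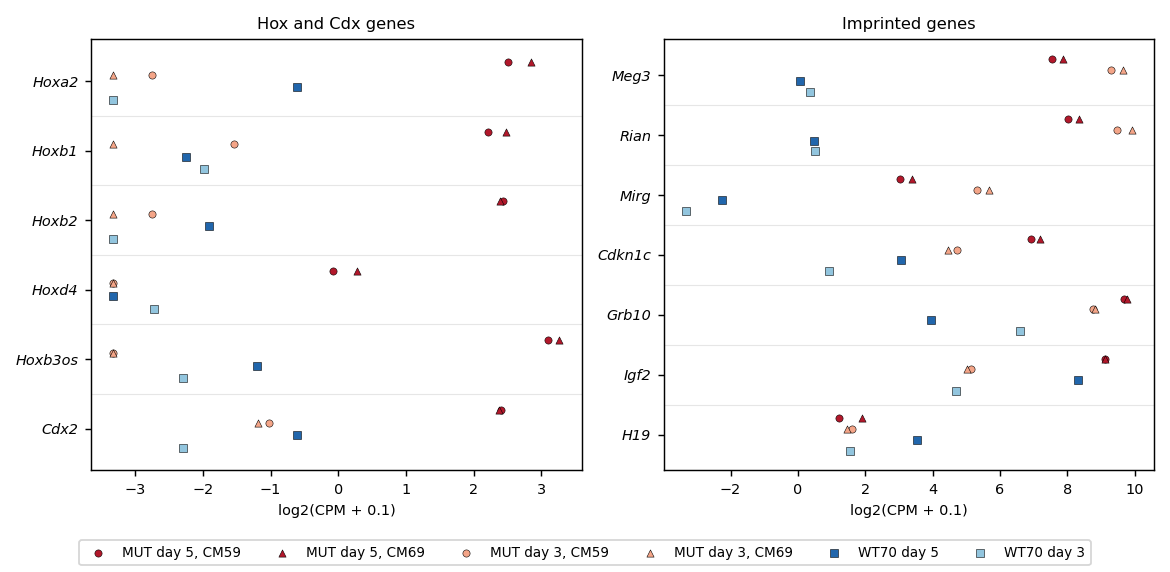
Levels of Hox, Cdx and imprinted genes in each MUT and WT70 library, as log2(CPM + 0.1), with day 5 beside day 3. Hoxb1 sat at 4.55 and 5.48 CPM in MUT cells on day 5 and at 0.111 CPM in WT70 cells, and Meg3 at 188 and 234 CPM in MUT cells on day 5 and at 0.946 CPM in WT70 cells.

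Retinoic acid, FGF and Notch genes moved as follows. Of 17 retinoic acid genes 9 rose and 3 fell (median 1.06), against 6 and 1 in WT70 cells. Crabp1, which binds retinoic acid in the cytoplasm, had 99.9 and 127 CPM on day 5, against 3.27 and 4.03 CPM on day 3 (4.95 ± 0.29), the receptor gene Rarb rose by 4.56 ± 0.49, and Stra6, the retinol transporter, by 3.03 ± 0.30. Of 22 FGF pathway genes 6 rose and 5 fell (median 0.14). The ligand Fgf4 and the FGF-induced factors Etv4 and Etv5 fell by 2.24 ± 0.20, 3.15 ± 0.26 and 2.33 ± 0.14. Etv5 was at 41.1 and 39.9 CPM on day 5, against 217 and 191 CPM on day 3, and at 22 CPM on day 5 and 190 CPM on day 3 in WT70 cells. Of 20 Notch genes 11 rose and 1 fell (median 1.11), and the median change in WT70 cells, with 1 library a day, was 0.38. Their summed level on day 5 was 1062 to 1094 CPM in MUT cells and 1050 CPM in WT70 cells. The ligand Jag1 rose by 2.54 ± 0.17, the glycosyltransferase Lfng by 2.05 ± 0.22 and the receptor Notch2 by 1.10 ± 0.12, while Hes6 fell by 1.35 ± 0.15.

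Among the enzymes that write and oxidise DNA methylation Tet2 was the member that rose. It had 45.9 and 49.6 CPM on day 5, against 12.1 and 13.8 CPM on day 3 (1.88 ± 0.20, adjusted p = 2.92e-08), and WT70 had 28.6 CPM on day 5 and 9.34 CPM on day 3. Tet3 had 132 and 127 CPM on day 5, against 94.8 and 97.4 CPM on day 3 (0.43 ± 0.13), inside the fold threshold. Of the 11 genes of this list Dnmt3b and Dnmt3l fell, the second by 1.65 ± 0.24, and Dnmt3a had −0.82 ± 0.08. Of 23 Polycomb genes 3 rose and 2 fell, and of 24 cell cycle genes 2 rose and 1 fell. Beside these counts, 8.80% of all tested genes rose and 8.59% fell, so most genes of any kind were not called. Cbx7 of Polycomb complex 1 fell by 2.26 ± 0.10 while Bmi1 rose by 1.49 ± 0.17. Ccnd2, cyclin D2, had 279 and 310 CPM on day 5, against 59.9 and 50.2 CPM on day 3, and Ccne1 fell by 1.41 ± 0.09.

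Among epithelial and matrix genes calls went both ways. Cdh1, E-cadherin, had 206 and 157 CPM on day 5, against 892 and 820 CPM on day 3, and fell by 2.24 ± 0.11. In WT70 cells it was at 99 CPM on day 5 and 874 CPM on day 3. Cdh11, a mesenchymal cadherin, rose by 4.43 ± 0.37, and of 19 cadherin and epithelial-mesenchymal genes 9 rose and 5 fell. Fn1, fibronectin, had 1136 and 1060 CPM on day 5, against 260 and 272 CPM on day 3 (2.05 ± 0.19), while WT70 had 491 CPM on day 5 and 320 CPM on day 3. Of 22 collagen, laminin and matrix genes 9 rose and 1 fell, against 5 and none in WT70 cells.

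Imprinted genes are read from 1 parental allele and depend on inherited DNA methylation. For 4 members given here levels in WT70 cells were unlike those of the MUT lines, and for Meg3 also unlike those of the WT lines. Of 28 tested, 13 rose and 6 fell in MUT cells (median 0.99). Meg3 (chr12:109541001-109571726), a non-coding RNA of the Dlk1-Dio3 domain, was at 188 CPM in CM59 and 234 CPM in CM69 on day 5, against 631 and 804 CPM on day 3, and fell by 1.77 ± 0.14 (adjusted p = 3.73e-10). Rian (chr12:109603940-109661716) and Mirg (chr12:109729764-109749460), of the same domain, fell by 1.53 ± 0.14 and 2.30 ± 0.20. The WT libraries had 260 to 309 CPM of Meg3 on day 5 and 494 to 643 CPM on day 3, whereas WT70 had 0.946 CPM on day 5 and 1.2 CPM on day 3. Rian was at 262 and 325 CPM on day 5 and 720 and 973 CPM on day 3 in MUT cells, against 1.28 CPM on day 5 and 1.33 CPM on day 3 in WT70 cells. Mirg was at 8.15 and 10.4 CPM on day 5 and 40.2 and 51.4 CPM on day 3 in MUT cells, while WT70 cells had 0.111 CPM on day 5 and no count on day 3. Cdkn1c (chr7:143458339-143461050), a cyclin-dependent kinase inhibitor that is imprinted, had 122 and 147 CPM on day 5, against 26.2 and 21.8 CPM on day 3, and 8.29 CPM on day 5 and 1.80 CPM on day 3 in WT70 cells. For all 4 genes both WT70 libraries lay below every MUT library of the same day. These WT70 levels come from 1 library a day and carry no test. Igf2, a fetal growth factor, had 560 and 555 CPM on day 5, against 34.9 and 32.6 CPM on day 3 (4.04 ± 0.23), and rose in WT70 cells as well, to 320 CPM on day 5 against 25.6 CPM on day 3.

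CM59 and CM69 were close to each other. Over the 11638 genes of 5 CPM or more the change in CM59 and that in CM69 had a correlation across genes of 0.957, and over all 21601 tested genes of 0.765, where genes are not independent and low counts add noise. For the called genes the median difference between the lines was 0.287 on the log2 scale, against a median change of 1.87 in size, and 398 of the 3755 differed by more than 1. As a description, with 1 library per line and day, the change of Vwa5b1 was 5.16 in CM59 and 2.78 in CM69, and that of Cyp26a1, the enzyme that breaks down retinoic acid, was 4.81 and 3.24. Cyp26a1 was at 24 CPM in CM59 and 19.9 CPM in CM69 on day 5, against 0.731 and 1.99 CPM on day 3, so that the lines differed mainly on day 3. In the other direction Ednrb, a receptor of neural crest, changed by 2.05 in CM59 and 4.04 in CM69, Lmx1a, a roof plate factor, by 4.10 and 5.62, and Hoxb1 by 3.66 and 5.46. Zfp987, a zinc finger gene, had no count in CM59 and 1.49 CPM in CM69 on day 5, against 23 and 16.4 CPM on day 3. Krt80, Steap3 and Cep83os, which also differed between the lines, lost their calls without 1 or more of the MUT libraries.

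**Figure D4:**
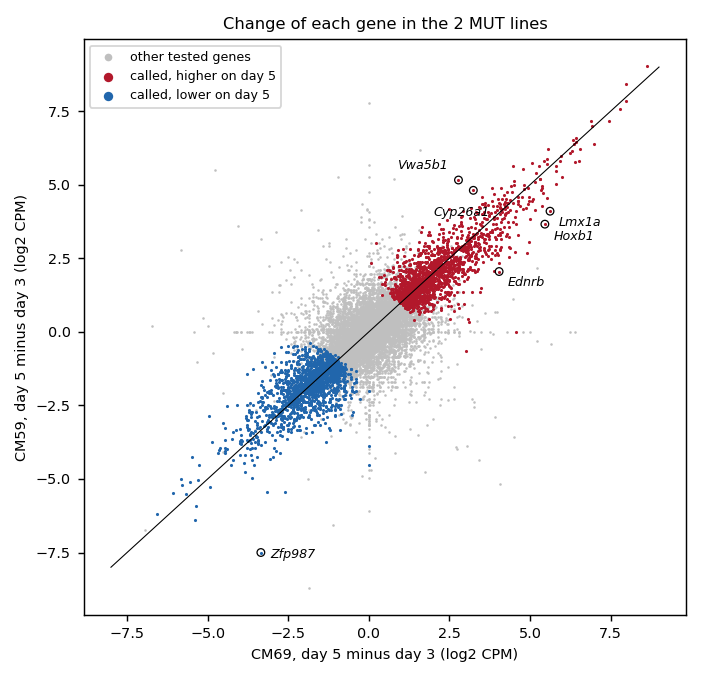
Log2 change between day 5 and day 3 in CM69 (horizontal) and in CM59 (vertical) for all tested genes, on a log2 CPM scale with a prior count of 2 and with called genes in red and blue. Called genes lie along the diagonal (the correlation was 0.765 over all 21601 genes and 0.957 over the 11638 of 5 CPM or more), with labelled genes such as Cyp26a1 (4.81 in CM59 and 3.24 in CM69) and Ednrb (2.05 in CM59 and 4.04 in CM69) off it.

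Whether the MUT course differed from that of WT70 was tested as the difference of the 2 changes. WT70 gave 1 library a day, so its spread is not measured and was assumed to be that of the replicated groups, and the count below ranged from 4 to 463 over the alternatives tried. The difference was past the thresholds for 18 of 21601 genes, 17 with a higher change in MUT cells (0.0787%) and 1 with a lower one (0.00463%), and 1664 genes (7.7%) had an unadjusted p under 0.05. None of the 20 streak genes, of the 21 paraxial mesoderm genes, of the 20 Hox and Cdx genes or of the 50 marker genes was among the 18. For T the difference was 0.84 (adjusted p = 0.98), for Foxa1 4.45 (adjusted p = 0.331) and for Cpm 2.33 (adjusted p = 0.226). With only the 6 libraries of the experiment fitted, where the spread comes from the MUT lines alone, 327 genes were called, and 6 marker genes were among them at nearly the same differences. These were Cpm (adjusted p = 0.00718), Foxa1 (0.00943), Sox17 (1.50, 0.0468) and Fgf5 (1.19, 0.0385), with the higher change in MUT cells, and Pax6 (−1.44, 0.00692) and Axin2 (−1.39, 0.00253), with the lower. Foxc2, of the paraxial mesoderm list, had a difference that was called with DESeq2 (7.76, adjusted p = 0.0453). Of the 17 genes, WT70 cells went down in 15, and MUT cells went down in 10 and up in 7. Cldn6, a tight junction protein of epiblast and endoderm, was at 64.3 CPM in CM59 and 55.6 CPM in CM69 on day 5, against 145 and 148 CPM on day 3, while WT70 had 22.3 CPM on day 5 and 172 CPM on day 3. It fell in both, by 1.29 in MUT and 2.95 in WT70 cells, and the difference was 1.65 (adjusted p = 5.4e-05). Cd248, endosialin, a glycoprotein of mesenchyme, had 10.6 and 12.5 CPM on day 5, against 3.51 and 5.39 CPM on day 3 in MUT cells, and 2.06 CPM on day 5 and 6.16 CPM on day 3 in WT70 cells. It rose in MUT cells by 1.37 and fell in WT70 cells by 1.58 (difference 2.95, adjusted p = 0.00101). Atp2b4, a plasma membrane calcium pump, had 46.5 and 47.2 CPM on day 5, against 12 and 10.1 CPM on day 3 in MUT cells, and 14.5 CPM on day 5 and 11 CPM on day 3 in WT70 cells (difference 1.69, adjusted p = 0.0156). Cdc42ep1, an effector of the small GTPase CDC42, rose by 1.03 in MUT cells (0.98 without the CM69 library of day 5), against a change of −0.72 in WT70 cells (difference 1.75, adjusted p = 0.0062). Hsd17b11, a steroid dehydrogenase, fell in both, by 1.78 in MUT and 3.49 in WT70 cells (1.72, adjusted p = 0.00493). Afap1l1, an actin-linked protein, had changes of 0.76 in MUT and −1.75 in WT70 cells (2.51, adjusted p = 0.00824), Nptx2, neuronal pentraxin, 0.59 and −1.01 (1.60, adjusted p = 0.0234), and Klhl4 −0.28 and −4.14 (3.85, adjusted p = 0.0430). Gucy2e, a guanylate cyclase known from photoreceptors, was the gene with the lower change, at 1.96 and 1.39 CPM on day 5 and 0.585 and 0.636 CPM on day 3 in MUT cells, against 9.29 CPM on day 5 and 0.308 CPM on day 3 in WT70 cells (−3.44, adjusted p = 0.0430). Leaving out 1 MUT library at a time took the call from Gucy2e with any of the 4 (adjusted p 0.0889 to 0.163), from Klhl4 with 3 (0.107 to 0.17), from Nptx2 with 3 (0.0757 to 0.14), from Atp2b4 without the CM59 library of day 5 (0.0518) or the CM69 library of day 3 (0.0973), and from Afap1l1 without the CM69 library of day 3 (0.0574). The count of called genes then ranged over 6 to 16. With the line as replicate block Klhl4 had an adjusted p of 0.0652.

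**Figure D5:**
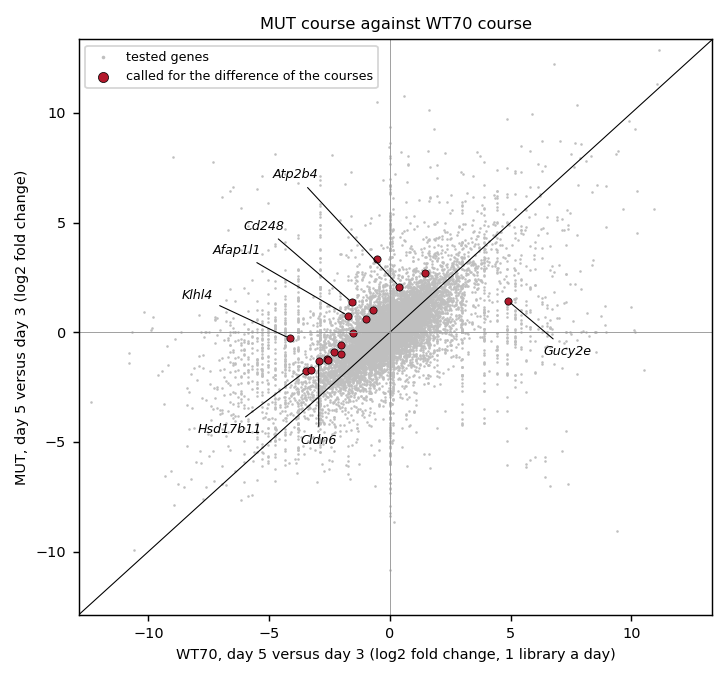
Log2 change between day 5 and day 3 in MUT cells against that in WT70 cells, 1 point per gene, with the 18 genes whose difference passed the test in red. Cldn6 (−1.29 in MUT and −2.95 in WT70 cells) and Cd248 (1.37 and −1.58) lie off the diagonal on the MUT side and Gucy2e (1.44 and 4.88) on the WT70 side.

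Against WT7 and WT34 of the other experiments, the MUT course differed in 185 genes, 100 with a higher change in MUT cells (0.463%) and 85 with a lower one (0.394%), and 3720 genes (17.2%) had an unadjusted p under 0.05. These comparisons use the same MUT libraries as that with WT70. Foxa1 and Cpm were called here, with differences of 4.50 (adjusted p = 0.0111) and 2.68 (adjusted p = 0.00289). The WT libraries had 0.454 to 5.4 CPM of Foxa1 on day 5 and 0.48 to 0.971 CPM on day 3, and 2.35 to 14.9 CPM of Cpm on day 5 and 1.39 to 3.07 CPM on day 3, so all of them lay below the MUT libraries of day 5. The call of Foxa1 was lost without the CM59 library of day 3 (adjusted p = 0.0966) or the CM69 library of day 3 (0.0706). Of the 21 endoderm genes 4 had a higher change and 1, Epcam, a lower one (−1.10, adjusted p = 0.0137), and of the 21 paraxial mesoderm genes 2 had a higher one, among them Prrx2 (2.14, adjusted p = 0.0091). Fn1 (1.29, adjusted p = 0.00624) and Pdgfrb (2.42, adjusted p = 0.00348) also had the higher change in MUT cells. Utf1 (−2.12, adjusted p = 0.0014), Pim2 (−1.32, adjusted p = 0.0014), Tdh (−2.52, adjusted p = 0.0111) and Elavl3 (−2.40, adjusted p = 0.00488) fell further in MUT than in WT cells. H19, an imprinted RNA named after its values were seen, had 2.22 and 3.66 CPM in MUT cells on day 5 and 2.97 and 2.67 CPM on day 3, against means of 52.4 CPM on day 5 and 6.57 CPM on day 3 in the WT lines (−3.05, adjusted p = 0.00289). T did not differ past the threshold (0.33, adjusted p = 0.878). With the WT libraries of experiment 1 alone as the comparator the difference of T was 2.13 (adjusted p = 0.00384), and the count of called genes was 1589 in place of 185. Without 1 MUT library at a time the count was 35 to 78.

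Against the KO lines the MUT course differed in 1343 genes, 694 with a higher change in MUT cells (3.21%) and 649 with a lower one (3.00%), and 5543 genes (25.7%) had an unadjusted p under 0.05. Of the 20 streak genes 13 had a higher change in MUT cells and none a lower one, among them T (4.48), Mixl1 (3.97), Lhx1 (3.31) and Eomes (2.20). In KO cells 5 of the streak genes rose and 11 fell, and the summed level of the list was above that of MUT cells on both days, at 449 to 514 CPM on day 5 and 163 to 204 CPM on day 3 in MUT cells, against 930 to 973 CPM on day 5 and 1039 to 1495 CPM on day 3 in KO cells. T averaged 113 ± 26.3 CPM in KO cells on day 5 (SD, n = 3) and 206 ± 12.6 CPM on day 3 (SD, n = 4). Of the 26 anterior neural genes 11 had a higher change in MUT cells and 4 a lower one. Of the 18 midbrain and hindbrain genes 9 had a higher change and 3 a lower one. The differences were 2.96 for Sox1, 3.15 for Lhx5 and 4.07 for En1, but −1.12 for Otx2. Endoderm and cardiac genes were on the other side, with 11 of 21 endoderm genes lower and 1 higher, and 14 of 21 cardiac genes lower and none higher. Spink1 (−4.25), Sox17 (−2.21), Cpm (−1.99), Tnnt2 (−4.61), Gata4 (−3.12) and Myl7 (−2.87) were among these. The calls of Mef2c and Myl7 were lost without any 1 of the 4 MUT libraries (adjusted p 0.0732 to 0.26 and 0.0597 to 0.24), and that of Mef2c also with the line as replicate block (−2.36, adjusted p = 0.0555). Those of Eomes, Mixl1, Lhx1, Sox17 and Lhx5 were lost without 1 or 2 of them, the highest adjusted p being 0.137, 0.0693, 0.139, 0.0844 and 0.0553.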

How the data were processed

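RNA was measured by stranded, polyA-selected sequencing. The authors used Trim Galore 0.6.4 for trimming, Salmon 0.14.1 with GENCODE mouse transcripts (mm10) for quantification and tximport to sum the estimates per gene, with no pooling. The deposited expected counts were rounded here to whole numbers (73.8% of values were whole as deposited). The deposited TPM values, scaled by the authors for transcript length, were used in an alternative only, as log2(TPM + 1) or log2(TPM + 0.1). The authors' own comparison tool, per the labels, was DESeq2 1.30.0 in R 4.0.2. Paralogs, pseudogenes and overlapping genes have uncertain values, since Salmon estimates how their shared reads divide.

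Of 54281 genes, 21601 passed the low-count filter of edgeR. It asked for 10 counts, scaled to library size, in at least 1 library, and for 15 counts in total. A single library was enough because the smallest groups, those of WT70, held 1 library each. A single model held the 36 libraries, with a mean for each of 16 groups, a term that set experiment 2 against 1, and 19 residual degrees of freedom, and was fitted with edgeR 4.0.16 in R 4.3.3 (quasi-likelihood F test, TMM, Benjamini-Hochberg adjustment over all tested genes). Each adjusted p is from this test unless another tool is named. Against 0 counts a fold is a bound from 3 counts over the group, and against 1 to 3 counts a ratio with a 95% interval (exact binomial). Bounds and intervals cover counting error only. The fit was tested on simulated data.

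The members and gene lists were chosen with earlier results of these data known. Genes named were a panel of 50 markers, the 12 most positive and 12 most negative changes among called genes without overlap between days and with 5 CPM or more, up to 8 in each direction for the difference from WT70, up to 4 members of smallest p in each list, and 5 with the largest difference between lines in each direction. Predicted genes were left out, except as list members, and 1 gene that the rule named is not reported here.

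Day 5 and day 3 shared their cell lines, but the main model held no term for the line. Pairing entered only in the alternative with the line as replicate block. The deviations of CM59 and CM69 from the day means had a correlation across genes of 0.0322 over all tested genes and 0.156 over the 11638 genes of 5 CPM or more. Alternatives were the line as replicate block, DESeq2 1.42.0, limma 3.58.1 on TPM values, other scalings, filters and thresholds, subsets of libraries, and leaving out each MUT library. Positions are from GENCODE M21 (mm10), which held 99.7% of the gene identifiers. Motif and promoter sequences are from RefSeq.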

Additional observations from a re-analysis of the deposited data

Results flagged for a closer look

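The values below are differences between the log2 change of MUT cells and that of another line, day 5 over day 3, each tested in the same model, and they were listed because the 2 courses differed past the thresholds. The comparisons with WT70, with WT7 and WT34 and with the KO lines share the MUT libraries, and the last pair also set different experiments against each other.

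Against WT70, which gave 1 library a day and whose spread was therefore taken from the replicated groups, 18 genes differed. Named among them were Klhl4 (3.85), Cd248 (2.95), Afap1l1 (2.51), Cdc42ep1 (1.75), Hsd17b11 (1.72), Atp2b4 (1.69), Cldn6 (1.65) and Nptx2 (1.60), with the higher change in MUT cells, and Gucy2e (−3.44), with the lower. The same contrast against WT7 and WT34 gave 2.11 for Klhl4 (adjusted p = 0.0236), 1.38 for Afap1l1 (0.0132), 1.17 for Cdc42ep1 (0.00432) and 1.07 for Atp2b4 (0.0111), and was not past both thresholds for Cd248 (0.84), Hsd17b11 (0.11), Cldn6 (0.68), Nptx2 (0.24) or Gucy2e (−0.88).

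Against WT7 and WT34, 185 genes differed, and of the marker panel these were Foxa1 (4.50), Cpm (2.68), Pim2 (−1.32) and Utf1 (−2.12).

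Against the KO lines, 1343 genes differed. A higher change in MUT cells can be a smaller fall and not a rise. Nanog changed by −0.22 in MUT and −4.26 in KO cells, and Pou5f1 by −3.31 and −4.57. Nodal and Lefty1 fell in MUT cells. Marker genes with the higher change in MUT cells were the pluripotency genes Nanog (4.04) and Pou5f1 (1.26), the streak genes T (4.48), Eomes (2.20), Mixl1 (3.97), Foxa2 (2.53) and Lhx1 (3.31), the Wnt genes Wnt3 (2.22), Axin2 (3.22) and Sp5 (3.90), the Nodal genes Nodal (2.64), Lefty1 (4.62) and Lefty2 (4.31), and the neural genes Sox1 (2.96), Lhx5 (3.15), En1 (4.07), Tubb3 (1.23) and Nes (1.33). Those with the lower change were Otx2 (−1.12), Tcf7l1 (−1.08), the endoderm genes Sox17 (−2.21), Spink1 (−4.25) and Cpm (−1.99), and the cardiac genes Mef2c (−2.41), Gata4 (−3.12), Myl7 (−2.87) and Tnnt2 (−4.61). Otx2 lost its call without any 1 of the 4 MUT libraries (adjusted p 0.0555 to 0.0736), Wnt3 without the CM59 library of day 5 (0.0542) or the CM69 library of day 3 (0.0691), and Tubb3 without the CM59 library of day 3 (0.0523) or the CM69 library of day 5 (0.0626).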

How the results depend on the processing

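For MUT day 5 over day 3, with 3755 calls, RLE scaling gave 3747 (3701 shared), DESeq2 3602 (3527 shared) and the line as replicate block 3665 (3621 shared), and none of these 3 changed the call of any of the 210 named genes. A log2 threshold of 1.5 gave 2477 calls, limma 1518 on log2(TPM + 1), 2404 on log2(TPM + 0.1) and 1493 on log2(TPM + 1) without a filter, and leaving out 1 MUT library 3175 to 3342. Atp2b4 turned round with limma (−0.19, −0.23 and −0.19 in that order), and for the difference from KO so did Foxa1 (−1.36 on log2(TPM + 1) with and without the filter), and the cause was not tested.

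The difference from WT70, with 18 calls, changed with most settings, and the cause was not tested. DESeq2 gave 105, no filter 359 and only the 6 libraries of experiment 3 327, and each held all 18. Experiment 3 alone with a replicate block gave 463 on 1 residual degree of freedom, WT and KO of experiment 1 only 256, limma on log2(TPM + 1) without a filter 108, the replicate block 14 (13 shared), a threshold of 1.5 11, CM59 only 8 and CM69 only 4. Leaving out 1 MUT library gave 6 to 16. Of the named genes, Foxa1 (4.49, adjusted p = 0.0474), Cpm (2.33, 0.0405) and Foxc2 (7.76, 0.0453) gained a call with DESeq2.

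The difference from WT, with 185 calls, gave 324 with DESeq2, 716 without a filter, 1589 with experiment 1 only, 61, 32 and 43 with limma in the order above, 95 at a threshold of 1.5, 1 with CM59 only, 6 with CM69 only, 146 with the replicate block and 35 to 78 without 1 MUT library. That from KO, with 1343 calls, gave 564, 639 and 496 with limma, 842 at a threshold of 1.5, 674 with CM59 only, 812 with CM69 only, 1293 with the replicate block and 955 to 1048 without 1 MUT library. Library totals alone, in place of TMM, took the call from Lefty1 (adjusted p = 0.052). At 0 to 3 counts on a day, as in 11 of the 20 Hox and Cdx genes, depth allows only a bound or a wide interval.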

Other observations

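Germline genes were the list with the most negative median in MUT cells among those counted. Of 20 listed 18 were tested, of which 14 fell and none rose (median −3.41, or −2.82 with low members at their bound), against 8 and none in WT70 cells and 13 and none in WT7 and WT34 cells. Ddx4, the germ cell RNA helicase VASA, was at 1.64 CPM in CM59 and 1.92 CPM in CM69 on day 5, against 14 and 13 CPM on day 3 (−2.91 ± 0.28), and at 2.34 CPM on day 5 and 5.39 CPM on day 3 in WT70 cells. Sycp3, of the meiotic synaptonemal complex, had 0.424 and 0.625 CPM on day 5, against 7.36 and 8.48 CPM on day 3 (−3.89 ± 0.36). Tdrd1, a Tudor protein of the piRNA pathway, fell by 3.53 ± 0.36.

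Glycolysis genes rose or were not called. Of 20 tested 7 rose and none fell (median 0.79), and the median change in WT70 cells, with 1 library a day, was 0.67. Their summed level on day 5 was 20923 to 21223 CPM in MUT cells and 21982 CPM in WT70 cells. Slc2a3, the glucose transporter GLUT3, had 2763 and 2652 CPM on day 5, against 340 and 405 CPM on day 3 (2.86 ± 0.14), and Pgk1, phosphoglycerate kinase, had 976 CPM in both lines on day 5, against 177 and 222 CPM on day 3 (2.29 ± 0.24). WT70 had 3098 CPM of Slc2a3 on day 5 and 582 CPM on day 3. Of 15 stress genes 1 rose and 2 fell, with Gadd45b up by 2.21 ± 0.29 and Trib3 and Ddit3 down by 1.91 ± 0.27 and 1.54 ± 0.28.

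Grb10, an imprinted adaptor of growth factor receptors, was named after its values were seen. It had 823 and 872 CPM in MUT cells on day 5 and 435 and 450 CPM on day 3, against 15.4 CPM on day 5 and 97.3 CPM on day 3 in WT70 cells and means of 237 CPM and 269 CPM in WT7 and WT34 cells on the same days. The difference between the MUT and WT70 courses was 3.60 (adjusted p = 0.0573).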
